A study of Mus musculus with 4 samples.

Results

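Kinesins are motor proteins that move along microtubules by hydrolysing ATP. Their transcripts were read on Illumina bead arrays of neurospheres, floating cultures of neural stem and progenitor cells, from mouse neocortex. The kinesin probes were those of the scanner table whose annotated gene symbol begins with Kif and a digit, or with Kifc. There were 88 of them among 45259 probes, and they covered 37 of 19057 annotated genes. A probe counted as detected when its detection p-value, the chance of such a signal from background, was under 0.05 on 2 or more of the 4 arrays, in either group. By this rule 48 kinesin probes of 26 genes were detected, among 18237 detected probes in all. The mitotic motors were Kif2c, Kif4, Kif11, Kif15, Kif18a, Kif20a, Kif20b, Kif22, Kif23 and Kifc1, with 15 of 23 probes detected. The other kinesins had 33 of 65 probes detected.

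Dividing cells use one set of kinesins to build the spindle, align and separate chromosomes and complete cytokinesis, and these motors are made mainly in late S phase, G2 and mitosis. Other kinesins carry organelles, vesicles and protein complexes along microtubules, above all in the long processes of neurons, or build cilia. Neurosphere cultures hold cycling progenitors beside differentiating neurons and glia, so both sets can be present in one culture.

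The groups were cells overexpressing Bmi1 and transgenic control cells, with 2 biological replicates of 1 array each. Bmi1 is a polycomb subunit that sustains self-renewal of neural stem cells. Both groups came from neocortices of a Cre/LoxP-based conditional transgenic mouse on the C57BL/6 background. Which promoter drives the Cre or the transgene is not stated in the labels. All cells grew in suspension with 20 ng/ml of EGF, 20 ng/ml of FGF2 and B-27 supplement, and the spheres were taken 5 days after plating. The arrays labelled Bmi1 are called the first and the second by their place in the table.

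The group names are not settled, because the deposited tables disagree. Each control column of the processed table ranked its probes as an array with a Bmi1 header in the scanner table did (Spearman correlation across probes of 1, and at most 0.898 with the other arrays). Each Bmi1 column ranked them as a scanner array with a control header did (1, and at most 0.899 with the others). Arrays are named here by the scanner headers, and every direction below turns if the processed table is right. The single probe of Bmi1 itself did not settle it, with overlapping signals of 53.3 and 77.7 on the arrays labelled Bmi1 against 79.4 and 62.7 on the controls. Between 16495 and 18242 probes were detected on an array, and the second Bmi1 array was the dimmest, with a mean signal of 191 against 215 on the first Bmi1 array and 228 and 233 on the controls. Xist, a noncoding RNA that coats an inactive X, gave signals of 114.7 to 970.5 over 4 probes on control array 1 and at most 8.4 on any other array. The brighter probe of Eif2s3y, a Y-linked gene, read -1.8 on control array 1. It read 239.6 and 228.5 on the arrays labelled Bmi1 and 204.6 on control array 2. Sex-linked transcripts thus set control array 1 apart from the other arrays, and the part of sex in the group differences was not tested. Progenitor markers were detected for 8 of 10 genes listed, Nes and Sox2 among them, and Pax6 and Prom1 were not detected.

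The promoter sequences of the mitotic motors are shown because these genes shared a cell cycle element that the choice of genes did not use. TTTGAA is the core of the cell cycle genes homology region (CHR), an element known to time transcription to G2 and mitosis. RefSeq promoters of build GRCm38.p6, from 250 bases before to 50 bases after each gene's start, were available for 9 of the 10 mitotic motors. TTTGAA stood on one strand or the other in 8 of these 9 promoters (88.9%). It stood in 4 of 25 promoters of the other kinesins (16%) and in 5878 of 32851 promoters of all genes in the table (17.9%). CCAAT, an element often found beside it, stood on either strand in 5 of 9 (55.6%), 9 of 25 (36%) and 37.4% of the promoters in the same order. Both elements stood together in 5 of 9 mitotic promoters, 3 of 25 promoters of other kinesins (12%) and 6.95% of all promoters. The elements can share only an end base. These counts are a description of sequence and show no binding.

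The sequences below run 5′ to 3′ in the direction of the gene, from 70 bases before the start to base 30 after it, and capitals mark TTTGAA or its reverse complement TTCAAA and CCAAT or its reverse complement ATTGG.
Kif11 (chr19:37376312-37376411, strand +): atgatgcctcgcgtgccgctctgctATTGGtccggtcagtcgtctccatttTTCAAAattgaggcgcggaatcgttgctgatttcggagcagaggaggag
Kif15 (chr9:122951011-122951110, strand +): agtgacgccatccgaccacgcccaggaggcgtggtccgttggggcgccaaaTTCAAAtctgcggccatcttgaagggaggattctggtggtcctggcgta
Kif22 (chr7:127042391-127042490, strand -): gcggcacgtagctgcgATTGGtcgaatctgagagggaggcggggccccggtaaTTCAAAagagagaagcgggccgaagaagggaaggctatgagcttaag
Kif20b (chr19:34922288-34922387, strand +): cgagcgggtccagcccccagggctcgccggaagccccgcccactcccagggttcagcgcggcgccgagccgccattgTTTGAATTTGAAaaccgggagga
Kif23 (chr9:61946770-61946869, strand -): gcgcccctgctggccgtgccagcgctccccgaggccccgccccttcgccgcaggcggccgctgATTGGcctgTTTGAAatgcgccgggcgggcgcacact
Kif4 (chrX:100625995-100626094, strand +): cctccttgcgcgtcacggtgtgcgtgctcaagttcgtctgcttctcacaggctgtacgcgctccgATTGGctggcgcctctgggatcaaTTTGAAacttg
Kifc1 (chr17:33890604-33890703, strand -): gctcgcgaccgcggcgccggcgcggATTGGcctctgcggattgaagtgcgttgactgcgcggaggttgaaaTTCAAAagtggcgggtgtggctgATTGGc
Kif18a (chr2:109280668-109280767, strand +): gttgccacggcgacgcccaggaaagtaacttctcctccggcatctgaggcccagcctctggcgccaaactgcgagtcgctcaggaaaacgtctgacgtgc
Kif18b (chr11:102925095-102925194, strand -): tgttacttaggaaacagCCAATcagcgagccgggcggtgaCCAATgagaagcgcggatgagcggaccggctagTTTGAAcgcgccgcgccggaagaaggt
In this window of 100 bases TTTGAA stood in 7 of 9 mitotic motors (77.8%), in 2 of 25 promoters of other kinesins (8%) and in 5.11% of all promoters. The window was chosen after the positions were seen. Kif11 and Kif15 carried the element at bases -19 to -14, and Kif22 at -17 to -12. Kif20b carried it as a pair, at 8 to 13 and 14 to 19 after the start. Kif2c carried it farther up, at -103 to -98. Kif18a had neither element within the full promoter. Kif18b, a motor of microtubule ends counted here with the other kinesins, had TTTGAA at bases 4 to 9 and CCAAT at -53 and -30.

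Mitotic motors had higher values on the arrays labelled Bmi1 than on the controls, and the size differed among them. All 15 detected probes had a log2 difference above 0, where 49% of all detected probes did, and their median was 0.56 against -0.01 over all detected probes. None passed at an adjusted p of 0.05 (limma on log2 values, Benjamini-Hochberg over 18237 probes), nor did any other probe (0%), and the smallest adjusted p was 0.142. At an unadjusted p under 0.05 there were 7 of 15 probes higher (46.7%) and 0 lower, where 10.7% of all detected probes were higher and 10.1% lower (20.8% in either direction). Over all 48 kinesin probes 10 were higher and 3 lower at that threshold. Without control array 1, the array with Xist signal, 13 of 15 mitotic probes had a difference above 0. Without the second Bmi1 array 15 of 15 did. The median over all detected probes was 0 after rounding in both of these fits. The arrays of the groups did not overlap for 8 of 15 probes (53.3%), all higher, against 26.3% of all probes higher and 27.3% lower, or 53.6% in either direction. The counts above 0, at an unadjusted p under 0.05 and without overlap each include a dim Kif18a probe. It was detected on neither control and entered the tested set through the Bmi1 arrays alone, so it is no support. The probes lie on the same arrays and several share a gene, so they are not independent. The median was 0.34 without control array 1 and 0.9 without control array 2, a shift of over 1.5 times. It was 1.19 over 9 genes when each gene was represented by its brightest probe.

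Kif11 and Kif15, motors of spindle assembly, showed some of the widest gaps, unlike the spindle motor Kifc1 described below. Kif11, the tetrameric motor that pushes spindle poles apart, had background-subtracted signals of 225.2 and 326.4 on the arrays labelled Bmi1, against 116.9 and 171.1 on the controls. Both Bmi1 arrays were above both controls, and on the normalized log2 scale the means were 8.33 ± 0.52 and 7.14 ± 0.29 (SD, n = 2 each). The log2 difference was 1.19 (SE 0.29, 95% interval 0.51 to 1.88, limma adjusted p = 0.142), a fold of 2.29. Kif15, a spindle motor that can keep poles apart when Kif11 is inhibited, had signals of 185.2 and 229.8 against 76.2 and 146.1 on the controls. The groups did not overlap and the log2 difference was again 1.19 (SE 0.31, limma adjusted p = 0.142). Kif11 and Kif15 lay above 99.4% of all detected probes by their log2 difference.

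Motors that act on chromosomes held the largest difference among the 48 detected probes. Kif22, a chromokinesin that pushes chromosome arms toward the spindle equator, had signals of 1464.9 and 2014.2 on the arrays labelled Bmi1, against 457.8 and 1000.2 on the controls. The groups did not overlap, although the controls differed from each other by more than a factor of 2. The log2 difference was 1.55 (SE 0.38, 95% interval 0.65 to 2.44, limma adjusted p = 0.142), a fold of 2.92, and it was 1 without control array 1 and 2.09 without control array 2. Kif18a, which damps chromosome movements at the plus ends of kinetochore microtubules, had signals of 51.6 and 94.9 against 20.8 and 29.3 on the controls. The second Bmi1 array stood highest, the groups did not overlap and the log2 difference was 1.37 (SE 0.33, limma adjusted p = 0.142), or 0.87 without the second Bmi1 array. Its dimmer probe was detected on both Bmi1 arrays, at 15.1 and 17.2, and on neither control, at 6.4 and 7.7. With the controls set to the lowest detected value or their own, whichever was higher, the Bmi1 mean was 1.45-fold above theirs. The fit gave a log2 difference of 0.56 (95% interval 0.09 to 1.03, limma adjusted p = 0.191). This probe entered the tested set through the Bmi1 arrays alone, so its place among the higher probes is no support.

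Other chromosome motors and the spindle motor Kifc1 differed less. Kif4, an X-linked chromokinesin that also shapes the central spindle, had 3 detected probes, with log2 differences of 0.36, 0.40 and 0.47 and SEs of 0.22 to 0.30 (limma adjusted p of 0.388 to 0.460). The difference of 0.36 was 0.21 without the second Bmi1 array. The probe with the brightest signals read 226.3 and 226.8 on the arrays labelled Bmi1 and 146.6 and 283.5 on the controls. The Bmi1 arrays lay between the controls in these signals, and the groups overlapped on the log2 scale for 2 of the 3 probes. Control array 1, the array with Xist signal, was the lowest of the 4 in that probe, and the part of X dosage in this was not tested. Kif2c, which depolymerises microtubules at centromeres to correct attachments, had signals of 375.4 and 338.7 against 207.4 and 435.8 on the controls. The controls spanned both Bmi1 arrays, and the log2 difference of 0.53 (SE 0.32, 95% interval -0.22 to 1.28, limma adjusted p = 0.388) became 0.04 without control array 1. Kifc1, a minus-end motor that focuses spindle poles, had log2 differences of 0.37 (SE 0.29) and 0.07 (SE 0.24) at its probes, with overlapping groups at both (limma adjusted p of 0.498 and 0.901). The first of these was 0.06 without control array 1.

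Cytokinesis motors split. Kif20b, a kinesin-6 that works in abscission and whose loss in mice gives a small cortex, had signals of 78 and 91.3 on the arrays labelled Bmi1, against 31.4 and 45.7 on the controls. The groups did not overlap, and the log2 difference was 1.21 (SE 0.24, 95% interval 0.64 to 1.78, limma adjusted p = 0.142). This probe had the smallest unadjusted p of the kinesins, 0.00147 by limma, and the difference stayed between 0.96 and 1.46 with any 1 array left out. Kif23, the motor of the centralspindlin complex, had 3 detected probes that disagreed. Its signals at the widest-differing probe were 311 and 491 on the arrays labelled Bmi1 against 158.4 and 341.9 on the controls, which overlapped before normalization. After normalization that probe had a log2 difference of 0.98 (SE 0.39, limma adjusted p = 0.219), while the others had 0.60 (SE 0.29) and 0.02 (SE 0.22). Without control array 1 the first of these was 0.49. The probe at 0.02 read 145.6 and 86.7 against 132 and 165.6 on the controls, and the transcript form that each probe reads was not examined. Kif20a, which carries mitotic kinases to the midzone, was detected on none of the arrays by its single probe, with signals of 4.6 and -0.6 on the arrays labelled Bmi1 and -1.2 and -2.5 on the controls.

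**Figure D1:**
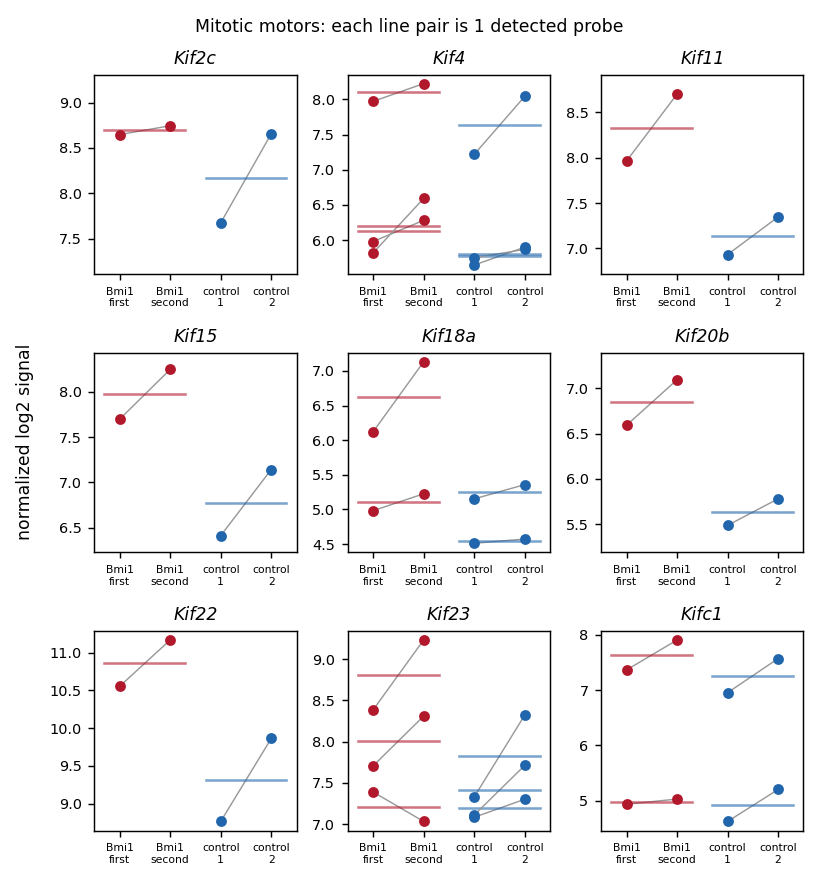
Normalized log2 signal of each detected probe of the 9 detected mitotic motors (vertical axes, 1 panel per gene) on the 4 arrays (horizontal axes). Points are arrays, grey lines join the arrays of a group for the same probe, and horizontal bars are group means. Kif11, Kif15, Kif18a, Kif20b and Kif22 have both Bmi1 arrays above both controls, while Kif2c, Kifc1, 2 of the 3 Kif23 probes and 2 of the 3 Kif4 probes overlap.

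On the normalized log2 scale, 13 of the 15 mitotic probes were highest on the second Bmi1 array and 14 were lowest on control array 1. The dimmer Kifc1 probe, highest on control array 2, and the Kif23 probe with a difference of 0.02 were the exceptions. Before normalization more probes were highest on control array 2. Among them were Kif2c (435.8, against 338.7 on the second Bmi1 array), the brightest Kif4 probe (283.5 against 226.8) and the brighter Kifc1 probe (200.4 against 176). Relative to each probe's mean over the 4 arrays, the median of the 15 probes was 0.16 (first) and 0.59 (second) on the Bmi1 arrays, against -0.65 on control array 1 and -0.05 on control array 2. The first Bmi1 array and control array 2 thus stood closer to each other than the arrays of either group did. The medians had the same order over 20 detected probes of spindle partners, a list of other spindle, kinetochore and cell division genes. They were 0.21 and 0.67 on the Bmi1 arrays against -0.8 and -0.02 on the controls. Of those 20 probes, 19 had a difference above 0, with a median of 0.82, where 49% of all detected probes did. At an unadjusted p under 0.05 there were 11 higher (55%) and 0 lower, against 10.7% and 10.1% of all detected probes, and at an adjusted p of 0.05 there were 0. The 11 include a probe of Ect2, a cytokinesis regulator, that was detected on both Bmi1 arrays and on neither control, and so entered the tested set through the Bmi1 arrays alone. Prc1, which bundles the central spindle and recruits Kif4, had signals of 2649.1 and 2876.7 on the arrays labelled Bmi1 against 1206.1 and 2174.7 on the controls (log2 difference 0.95, SE 0.30, limma adjusted p = 0.161). That difference was 0.54 without control array 1. Aurkb, the kinase that regulates Kif2c and Kif23, had 145.4 and 146.2 against 96.2 and 235, with overlapping groups and a log2 difference of 0.28 (SE 0.35, limma adjusted p = 0.689). Without control array 1 that difference was -0.26. Racgap1, the partner of Kif23, and Cenpe, the kinetochore kinesin with a symbol outside the family's, were not detected by their single probes.

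General proliferation genes were less complete. Of 6 markers listed, Pcna, Mcm2 and Top2a had detected probes, Ccna2 and Ccnb2 were not detected, and Mki67 was not analysed here. The 5 detected probes had differences above 0, with a median of 0.48. None of them (0) had an unadjusted p under 0.05 by limma, where 10.7% of all detected probes were higher and 10.1% lower. The groups did not overlap for 2 of 5, both of Top2a (0.89 and 0.69) and higher (40%), against 26.3% of all detected probes. Summed signals of the list were 649.3 and 1010.4 on the arrays labelled Bmi1 against 532.9 and 778.9 on the controls, so the groups overlapped in these sums. In these bulk cultures a different number of dividing cells and a different amount of motor RNA per dividing cell cannot be told apart.

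**Figure D2:**
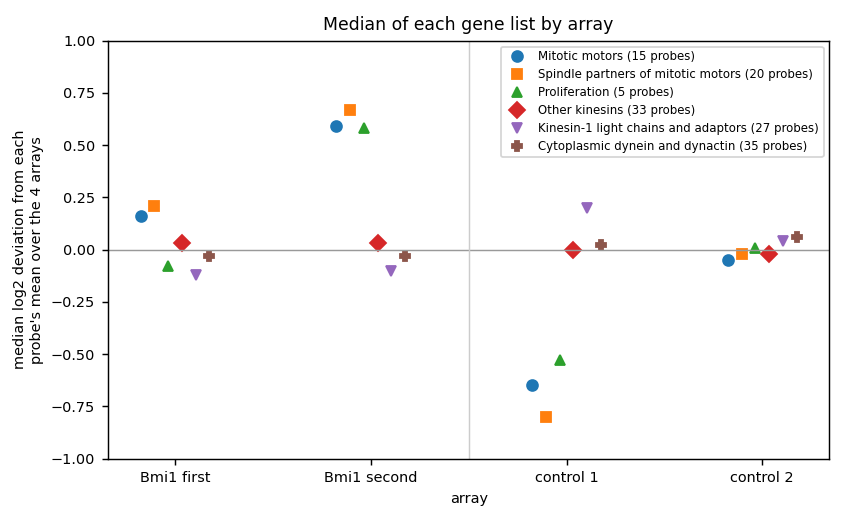
Median log2 deviation of each gene list from its probes' means over the 4 arrays (vertical axis), by array (horizontal axis), with the number of detected probes in the legend. Mitotic motors, spindle partners and proliferation genes are highest on the second Bmi1 array and lowest on control array 1, while the other kinesins lie within 0.03 of 0 on every array.

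The other kinesins were spread on both sides of 0. Of 33 detected probes, 22 had a difference above 0 and 11 did not, with a median of 0.11 against -0.01 over all detected probes. At an unadjusted p under 0.05 there were 3 higher and 3 lower (9.09% each), close to the 10.7% and 10.1% of all detected probes. The groups did not overlap for 8 probes higher (24.2%) and 5 lower (15.2%), against 26.3% and 27.3%. Log2 differences ran from -0.87 to 0.74. With median scaling over all probes in place of quantile normalization the median was -0.02 in a set whose overall median was -0.21.

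**Figure D3:**
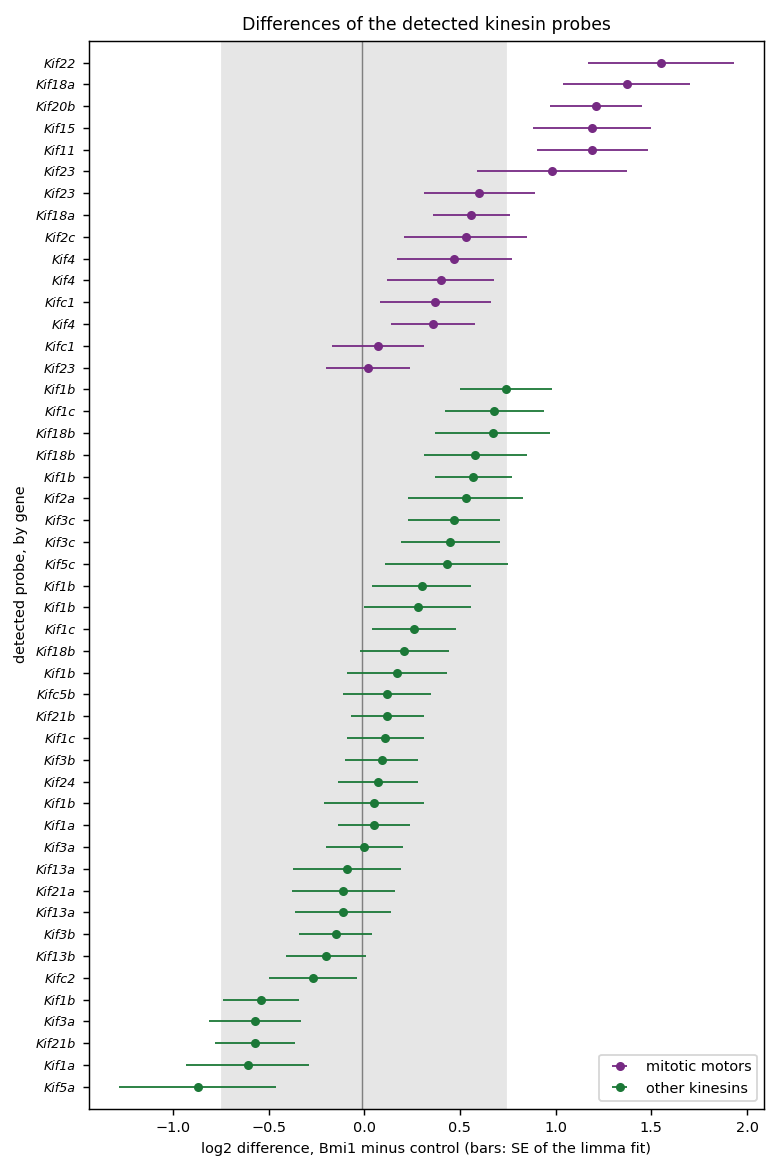
Log2 difference, Bmi1 minus control (horizontal axis), of the 48 detected kinesin probes, 1 row per probe labelled by gene. Points are limma estimates and bars their SE, the grey band covers the 5th to 95th percentile of all 18237 detected probes (-0.746 to 0.742), and the vertical line is their median. Of the mitotic motors, 6 probes lie beyond the band, from 0.98 to 1.55, and of the other kinesins 1 lies beyond it, Kif5a at -0.87.

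Kinesin-3 motors carry synaptic vesicle precursors and organelles, and their probes disagreed within a gene. Kif1b, which moves mitochondria and synaptic vesicle precursors as different splice forms, had 7 detected probes. The probe of smallest p read 124.7 and 155.4 on the arrays labelled Bmi1 against 101.5 and 102.9 on the controls, with a log2 difference of 0.74 (SE 0.24, limma adjusted p = 0.168) that was 0.46 without the second Bmi1 array. A probe annotated to the same transcript read 704.9 and 591 against 470.3 and 572.7, with a log2 difference of 0.57 (SE 0.20, limma adjusted p = 0.189). Another Kif1b probe, annotated to a different transcript, read 2071.8 and 1795.8 on the arrays labelled Bmi1 against 3241 and 3137.5 on the controls. Its groups did not overlap in the opposite direction, with a log2 difference of -0.54 (SE 0.20, limma adjusted p = 0.193). The remaining 4 Kif1b probes lay between 0.05 and 0.30, and all had overlapping groups. Those at 0.30, 0.28 and 0.17 were annotated to the same transcript as the lower probe, and that at 0.05 to the transcript of the first 2. Direction thus differed among probes annotated to 1 transcript. The probe annotation lists these transcripts without saying which splice form each is.

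Kif1a and Kif1c held smaller or single-probe differences. Kif1a, a neuronal vesicle motor, read 6663.2 and 5644.7 on the arrays labelled Bmi1 against 6635 and 6213.9 on the controls at one probe, with a log2 difference of 0.05 (SE 0.19, 95% interval -0.41 to 0.50). At the other Kif1a probe it read 118.3 and 40.8 against 152.1 and 150.2, with a log2 difference of -0.61 (SE 0.32, limma adjusted p = 0.326). The second Bmi1 array alone was far below the rest there, and without it the difference was -0.12. Kif1c, a motor of integrin and peptide vesicles, had differences of 0.68 (SE 0.26, limma adjusted p = 0.210), 0.26 and 0.11 at its probes. At the first of these the signals were 29 and 43.3 on the arrays labelled Bmi1 against 19.3 and 25.9 on the controls, and the difference was 0.34 without the second Bmi1 array. Kif13a and Kif13b, further kinesin-3 motors, had differences of -0.09 and -0.11, and of -0.20.

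Kinesin-2 motors drive transport into cilia and along axons. Kif3a, the core of the heterotrimer, read 631.4 and 413.1 on the arrays labelled Bmi1 against 1057.5 and 787.3 on the controls at one probe. Both Bmi1 arrays were below both controls, with a log2 difference of -0.57 (SE 0.24, 95% interval -1.14 to 0.00, limma adjusted p = 0.239) that was -0.34 without control array 1. The second Kif3a probe read 1518.7 and 1221.2 against 1517.9 and 1656.2, with a log2 difference of 0.00 (SE 0.20, 95% interval -0.46 to 0.46). Kif3b, its partner, had differences of 0.09 and -0.15 (SE 0.19 each). Kif3c, the alternative partner, had 0.47 (SE 0.24, limma adjusted p = 0.312) and 0.45 (SE 0.26), with signals at the first of 1281.2 and 1710.8 on the arrays labelled Bmi1 against 1216.7 and 1200.5 on the controls. The first was 0.19 without the second Bmi1 array. Kifap3, the non-motor subunit that links this complex to cargo, had differences of 0.23, 0.01 and -0.04 over 3 probes, with SEs of 0.19 to 0.22. Kif17, the homodimeric member, was not detected by any of its 3 probes.

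Kinesin-1, the general organelle motor, was seen through few probes. Kif5a, its neuronal heavy chain, read 23.6 and -1.1 on the arrays labelled Bmi1 against 57.3 and 25.6 on the controls at the 1 detected probe. The second Bmi1 array was below detection, and on the normalized log2 scale the first Bmi1 array (5.33) lay above control array 2 (5.24), so the groups overlapped. The log2 difference of -0.87 (SE 0.41, 95% interval -1.82 to 0.08, limma adjusted p = 0.273) was -0.33 without the second Bmi1 array. Kif5c, the other neuronal heavy chain, read 80.4 and 67.2 against 99.8 and 44.1, with a log2 difference of 0.43 (SE 0.32, limma adjusted p = 0.486) that was -0.07 without control array 2. Kif5b, the widely used heavy chain, had 3 probes and none was detected on 2 arrays.

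Light chains and cargo adaptors, mainly of kinesin-1, lay mostly lower, with probes of some genes on both sides of 0. The list also held Kifap3, the kinesin-2 subunit, and Kifbp. Of its 27 detected probes over 12 genes, 17 had a difference below 0, with a median of -0.19. The groups did not overlap for 14 of them lower (51.9%) and 3 higher (11.1%), where 27.3% and 26.3% of all detected probes did not. At an unadjusted p under 0.05 there were 8 lower (29.6%) and 1 higher (3.7%), against 10.1% and 10.7% of all detected probes, and at an adjusted p of 0.05 there were 0 by limma. The 8 include a probe of Rhot2, a mitochondrial anchor for motors, that was detected on both controls and on neither Bmi1 array, and so entered the tested set through the controls alone. That Rhot2 probe stood at -0.46, while the brightest Rhot2 probe, at 0.73, was the 1 higher probe. Probes of the adaptors Mapk8ip1 (-0.61 and 0.42) and Mapk8ip2 (-0.98 and 0.42) also disagreed, with the brighter probe above 0 in each. Those of the adaptor Fez1 were both lower (-0.54 and -0.56). Klc1, the main neuronal light chain, had 5 detected probes with log2 differences of -0.73, -0.56, -0.44, -0.41 and -0.07. At the first of these it read 203 and 144.2 on the arrays labelled Bmi1 against 426.1 and 326.7 on the controls, with SE 0.22 and a limma adjusted p of 0.158. Klc4, another light chain, chosen after its values were seen, read 157.6 and 108.4 against 307.3 and 324, with a log2 difference of -0.84 (SE 0.20, limma adjusted p = 0.142). The Klc4 difference stayed between -0.94 and -0.73 with any 1 array left out. Cytoplasmic dynein and dynactin, the opposite-directed motor complex, had a median of -0.07 over 35 probes, with 2 higher (5.71%) and 3 lower (8.57%) at an unadjusted p under 0.05, where 10.7% and 10.1% of all detected probes were. Its heavy chain Dync1h1 had a log2 difference of 0.04 (SE 0.24).

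Motors of microtubule ends stood between the sets. Kif18b, which shortens astral microtubules in mitosis and was counted with the other kinesins by the rule, had differences of 0.67 (SE 0.30, limma adjusted p = 0.258), 0.58 (SE 0.27) and 0.21 (SE 0.23). At the first of these the signals were 107.4 and 164.1 on the arrays labelled Bmi1 against 87.8 and 119.7 on the controls, and after normalization the groups did not overlap at 2 of its 3 probes. Without the second Bmi1 array the first difference was 0.25. Kif2a, a depolymerase of spindle poles and of axon branches, read 96.1 and 135.9 against 117.4 and 81.6, with overlapping groups and a log2 difference of 0.53 (SE 0.30, limma adjusted p = 0.363) that was 0.17 without the second Bmi1 array. Kif24, a depolymerase that holds back cilium formation, had a difference of 0.07 (SE 0.21).

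**Figure D4:**
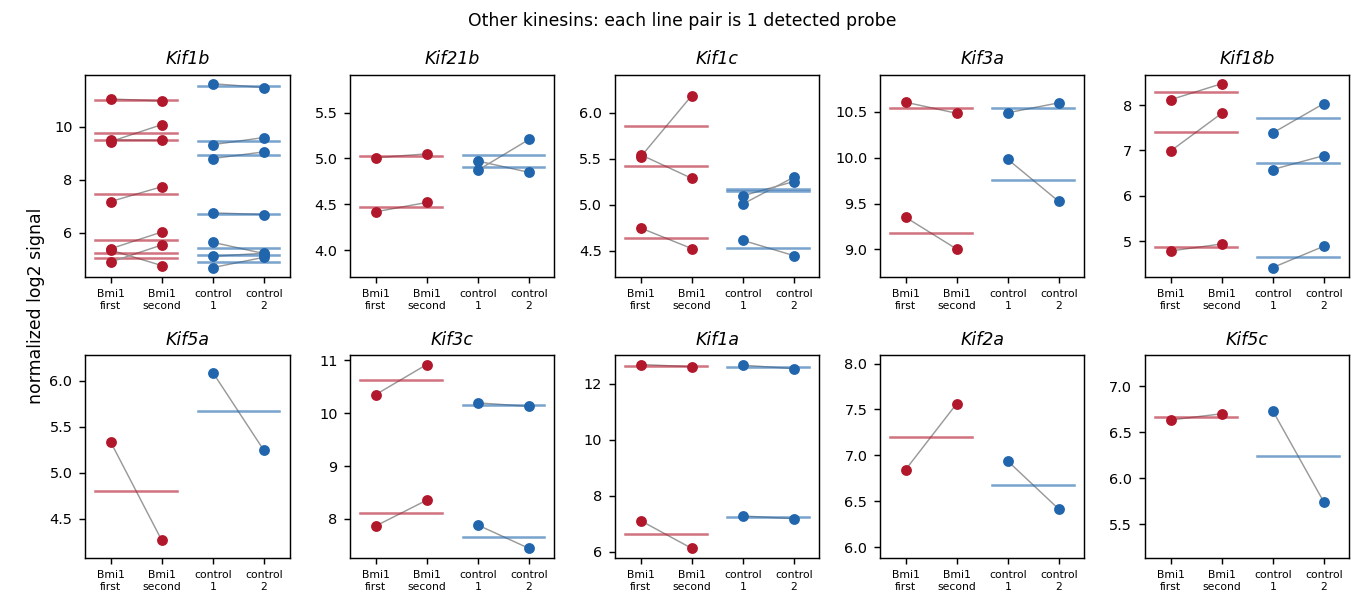
Normalized log2 signal of each detected probe of 10 other kinesins (vertical axes, 1 panel per gene) on the 4 arrays (horizontal axes). Points are arrays, grey lines join the arrays of a group for the same probe, and horizontal bars are group means. Probes of Kif1b, Kif3a, Kif1a and Kif21b disagree within a gene, and Kif5a is lowest on the second Bmi1 array.

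The remaining members were close to background or close to 0 in difference. Kif21b, a neuronal motor that limits microtubule growth, had a probe detected on both controls, at 14 and 24.5, and on neither Bmi1 array, at 3.9 and 5.9. It was at least 1.31-fold lower in the arrays labelled Bmi1 (fit adjusted p = 0.200, limma), and it too entered the tested set through 1 group alone. The other Kif21b probe had a difference of 0.12 (SE 0.19), and Kif21a, its paralog, had -0.11 (SE 0.27). Kifc2, a minus-end motor of dendrites, had -0.27 (SE 0.23). Kifc5b, at 0.12 (SE 0.23), is a near-identical copy of Kifc1, and how far the probes of each read the other was not tested. Detection was missing for Kif20a among the mitotic motors and for Kif5b, Kif7, Kif9, Kif12, Kif16b, Kif17, Kif26a, Kif27, Kif2b and Kifc3 among the others. Just inside the rule lay a Kif1c probe, detected on 2 arrays with signals of 10.5 and 5.9 on the arrays labelled Bmi1 and 8.5 and 4.7 on the controls. Just outside lay a Kif5b probe, detected on 1 array, with 6.9 and 12.2 on the arrays labelled Bmi1 and 5.9 and 2.6 on the controls.

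Markers of other cell types were not level across the arrays. Astrocyte markers, 8 probes over 5 of 6 genes, all had differences below 0, with a median of -0.67, and summed signals of 5437.7 and 3652 on the arrays labelled Bmi1 against 8911.7 and 9905.4 on the controls. S100b was the astrocyte marker not detected. Oligodendrocyte lineage markers, 9 probes over 7 genes, had a median of -0.65 and sums of 19984.7 and 16043.9 against 31226.6 and 20647.3. Of these probes 7 were below 0, while Olig1 (0.09) and Pdgfra (0.24) were above it. The 7 include an Mbp probe (-1.23) detected on both controls and on neither Bmi1 array, which entered the tested set through the controls alone. Neuronal markers, 5 of 8 genes, had a median of 0.00 and sums of 3012.5 and 1977 against 3670.6 and 3492.2, and Stmn2, Tubb3 and Snap25 were not detected. The neuronal probes did not move together. Both detected probes of Dcx (-0.79 and -0.94) and of Elavl3 (-1.31 and -0.91) were lower on the arrays labelled Bmi1 without overlap. A Syt1 probe (0.36) was higher without overlap. The other detected Syt1 probe stood at -0.01, Gap43 at 0.09, and Map2 between -0.12 and 0.19 over its detected probes. The groups did not overlap for 4 neuronal probes lower (33.3%) and 1 higher (8.33%), against 27.3% and 26.3% of all detected probes. Of the 12 neuronal probes 3 were lower (25%) and 0 higher at an unadjusted p under 0.05, against 10.1% and 10.7% of all detected probes. At an adjusted p of 0.05 there were 0 by limma. Endothelial markers were detected for 0 of 4 genes. Microglial markers were detected for 2 of 5 genes, with summed signals of at most 22.6 on any array, and ependymal ones for 2 of 3, at most 34.1. The 2 microglial probes were detected on both Bmi1 arrays and on neither control, and so entered the tested set through the Bmi1 arrays alone. The part of cell makeup in the kinesin differences was not tested.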

How the data were processed

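RNA of 4 neurosphere cultures was hybridised to Illumina bead arrays. Per the file headers, the deposited scanner table gives each probe an intensity and a detection value on every array. Its intensities were taken as background-subtracted, since 31.2 to 33.9% lay at or below 0. The deposited detection values increased with intensity (Spearman 0.980 to 0.987), so 1 minus the value was used as the detection p-value. The deposited processed table holds log2 values with equal quantiles over its columns (medians of 5.686 to 5.689). Its transform and direction are not given, and its group names oppose the scanner headers. The tool named per the submitters' processing notes is lumi, without a version. Of the scanner rows, 22 had no probe identifier and were left out.

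In R 4.3.3, the neqc function of limma 3.58.1 was run on the intensities (normexp from detection p-values, offset 16, log2, quantile). Probes detected on at least 2 arrays were tested with lmFit and eBayes, two-sided, with Benjamini-Hochberg adjustment over all 18237 (7.29 degrees of freedom, threshold 0.05). Each probe was kept as its own feature, and intervals are at 95%. The fold given for probes undetected in 1 group used the lowest detected log2 value of each array, or the probe's own value where higher. The annotation gives 34872 probes 1 gene symbol, 18 several and 10369 none, and 34794 were updated to a current gene.

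Named are all mitotic motors, the 10 other kinesins of smallest p and a short list of partners. Motors, lists and alternatives were chosen with earlier results of these data known. The fit was also run on simulated data, with independent noise of equal spread for every probe. The simulated differences were larger than any seen for a kinesin probe. That run therefore does not show how well differences of the size seen here are found. Alternatives covered scaling, background, offset, filter, probes per gene, variance trend, the processed table, a replicate block and each array left out. The labels call the cultures biological replicates without naming animals, so p-values measure only the spread between these samples, and the number of arrays limits precision. No slide or scan date is given, so no batch was tested.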

Additional observations from a re-analysis of the deposited data

How the results depend on the processing

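No kinesin probe passed at an adjusted p of 0.05 by limma under any alternative run, where over all probes 61 passed when the first Bmi1 array was left out, 10 when control array 2 was, and 0 otherwise. With the processed table's own group names every named difference turned. It was -1.03 for Kif11, -0.99 for Kif15, -0.91 for Kif18a, -0.85 for Kif20b, -1.49 for Kif22, -0.89 for Kif23, -0.48 for Kif2c, -0.24 for Kif4, -0.31 for Kifc1, -0.60 for Kif1b, -0.40 for Kif1c, -0.54 for Kif18b, -0.46 for Kif3c, -0.42 for Kif2a, -0.30 for Kif5c, -0.17 for Kifap3, -0.22 for Aurkb, -0.94 for Prc1 and -0.04 for Dync1h1. It was 0.47 for Kif1a, 0.29 for Kif21b, 0.55 for Kif3a, 0.51 for Kif5a, 0.66 for Klc1 and 0.73 for Klc4. The medians were -0.48 for mitotic motors and -0.06 for other kinesins. At an unadjusted p under 0.05 by limma, 2 kinesin probes of 48 were higher and 7 lower, against 1852 and 1957 of all 18237. The named differences were the same to 2 decimals with the replicate block, which only the processed table's columns allow. The kinesin counts were then 3 higher and 11 lower, against 1620 and 1774 of all probes. Deviations of same-numbered arrays correlated at -0.202. With crossed numbers, an alternative added after seeing the data, the kinesin counts were 2 and 10, against 2168 and 2199 of all probes. With the scanner names on the processed table the median of the other kinesins was 0.06.

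Median scaling over all probes gave 615 probes higher and 3670 lower at an unadjusted p under 0.05 (14.4% higher, against 51.6% of 1958 and 1835 with quantile normalization), and 5 and 6 of the kinesins. Its overall median was -0.21 and its mitotic median 0.27. Aurkb was then -0.05, Dync1h1 -0.20, Kifap3 -0.12 and the median of other kinesins -0.02. Median scaling over detected probes, added after seeing the data, gave 66% higher, an overall median of 0.12 and an other-kinesin median of 0.31. It left 0 kinesins lower, against 1421 of all 18237 probes. With 1 probe per gene, Kif1a was 0.05, Kif1b -0.54, Kif21b 0.12 and Kif3a 0.00 by a brighter probe. The mitotic median was then 1.19, that of other kinesins 0.07, and 1 kinesin of 26 was lower, against 1250 of all 12809. The median of other kinesins was 0.12 without normexp, 0.05 at an offset of 50, 0.01 with no filter and 0.12 with detection p under 0.01 on all arrays.

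With 1 array left out, kinesin probes higher ranged from 5 (without the second Bmi1 array) to 16 (without the first) and lower from 1 (without control array 1 or the second Bmi1 array) to 4. All probes ranged from 763 to 2537 higher and from 869 to 2378 lower. The mitotic median ranged from 0.34 to 0.90 and that of other kinesins from 0.06 to 0.11. Aurkb ranged from -0.26 to 0.83, Dync1h1 from -0.23 to 0.32 (-0.01 without the first Bmi1 array) and Kif5c from -0.07 to 0.93. The cause of these shifts was not tested. The array left alone in its group is assumed to vary like the other group.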
